A study of Mus musculus with 12 samples.

Results

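Ring1B was removed from mouse embryonic stem (ES) cells that already lacked Eed, and the double deficient cells were compared with that Eed deficient parent line. The comparison used every annotated probe set of the value table: of 45101 probe sets, 34945 carried 1 gene symbol, for 18193 genes. After a filter on low signals 13984 genes were tested, each through its brightest kept probe set. The 3 double deficient and 3 Eed deficient arrays were 6 of the 12 arrays of the study.

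The study hybridised total RNA of 4 genotypes to Affymetrix Mouse 430_2.0 arrays, 3 arrays each. The wild type ES cells are labelled as a line published earlier, with no allele named. The Ring1B deficient cells were a Ring1B mutant and the Eed deficient cells an Eed mutant, both made by gene targeting. The Ring1B/Eed double deficient line was derived by targeting Ring1B in Eed deficient cells, so both groups compared here lacked Eed. No drug or other treatment is named, and the cells were judged undifferentiated by colony morphology. Each genotype appears to be 1 line, since no other is described, so Ring1B loss cannot be told apart from other differences between a line and its derivative. The replicates are called biological without further detail, and p-values measure the spread between these arrays only.

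Polycomb group proteins keep developmental genes low in ES cells through 2 complexes. Polycomb repressive complex 2 (PRC2), with Eed as a core subunit, methylates lysine 27 of histone H3, and PRC1, with the ubiquitin ligase Ring1B, marks histone H2A and can bind chromatin through that methylation or without it. Some PRC1 complexes reach promoters by way of DNA-binding partners such as E2F6 and the Mga/Max pair rather than through PRC2, and germline genes are known among their targets. Comparing the double deficient line with its parent asks which genes still respond to Ring1B when PRC2 is already impaired.

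Values are MAS5 signals, on a linear scale with a trimmed mean of 100 on every array. A log2 change was computed after adding 5 to each signal, so it is smaller than the ratio of signals for dim genes. Called here means an adjusted p below 0.05 in a limma model over all 12 arrays, with Benjamini-Hochberg adjustment over the 13984 genes. Array medians were 21.5, 21.5 and 22.8 in Eed deficient cells and 24.7, 23.3 and 28.0 in double deficient cells. The double deficient arrays lay above the Eed deficient ones, and the median change of all tested genes was 0.06, with -0.03 for the brighter and 0.18 for the dimmer genes. The summed signal of 8 defining ES cell markers was 19237, 16478 and 17655 in Eed deficient and 16662, 14582 and 15571 in double deficient arrays.

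The targeted gene was read first. Rnf2, which encodes Ring1B, had signals of 679, 973 and 685 in the 3 Eed deficient arrays and of 362, 399 and 387 in the double deficient arrays. All double deficient arrays lay below all Eed deficient ones, at 49.2% of their mean (log2 change -0.996, SE 0.16, adjusted p = 0.00952). The next brightest Rnf2 probe set gave 471, 654 and 468 in Eed deficient and 256, 300 and 271 in double deficient arrays, again without overlap. A weaker Rnf2 probe set was higher in the double deficient arrays, from 19.7, 25.9 and 21.3 to 36.1, 36.5 and 42.8, and the mean of the kept Rnf2 probe sets was not called (adjusted p = 0.295). Without double deficient replicate 3 the Rnf2 call was not made (adjusted p = 0.0512). The deleted part of Rnf2 is not given in the sources used here, and the remaining signal does not measure Ring1B protein. Eed had 37.3, 25.0 and 51.1 in Eed deficient and 87.1, 47.5 and 79.1 in double deficient arrays, against a wild type mean of 1428 ± 159 (SD, n = 3), and was not called (log2 change 0.84, adjusted p = 0.0922). Ring1, which encodes the related ligase Ring1A, stood between 36.6 and 48.4 on all 6 arrays (log2 change 0.22, adjusted p = 0.58).

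Between Eed deficient and double deficient cells 265 of the 13984 tested genes (1.9%) were called. Most called changes of at least 2-fold were rises. In double deficient cells 150 genes were higher (1.07% of those tested) and 115 lower (0.822%), 98 and 32 of them by at least 2-fold. The median size of a call was 1.12 in log2 for the higher and -0.79 for the lower genes. The 6 arrays did not overlap between the groups for all 265 called genes, and they did not overlap for 24.9% of all tested genes. The higher genes included germline genes, endoderm regulators and secreted signalling antagonists, and 51 of the 115 lower genes lay on chromosome 6.

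The number of calls rested on each array of the comparison. Without Eed deficient replicate 1 the counts were 55 higher and 33 lower, without Eed deficient replicate 2 they were 62 and 52, and without Eed deficient replicate 3 they were 202 and 82. Without double deficient replicates 1, 2 and 3 they were 43 and 32, 70 and 69, and 26 and 19. Called in all 6 of these fits were 24 higher and 15 lower genes. With all arrays scaled to 1 median, which lowers the median change of all genes from 0.06 to -0.13, 82 genes were higher and 343 lower. Quantile normalization gave 150 and 189. With the replicate number as a block in the model, which assumes that same-numbered arrays belong together, 655 were higher and 648 lower.

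**Figure D1:**
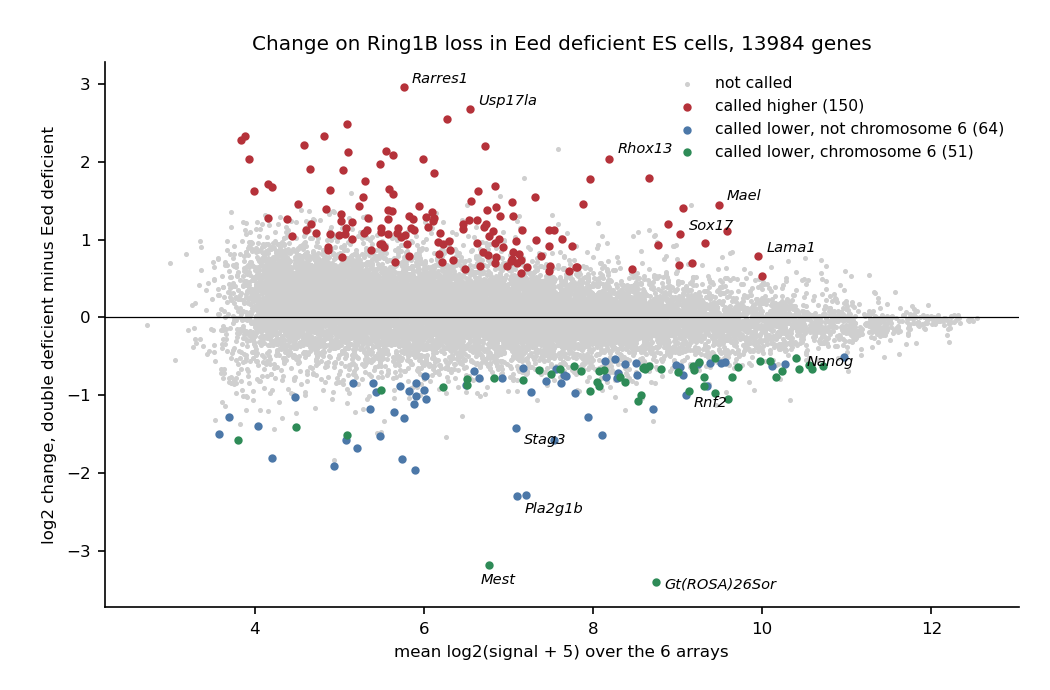
Log2 change from Eed deficient to double deficient cells (y axis) against the mean log2(signal + 5) over the 6 arrays (x axis), 1 point per tested gene. Red points are the 150 genes called higher, blue points the 64 called lower outside chromosome 6 and green points the 51 called lower on chromosome 6. Rarres1 has the highest labelled point at 2.96 and Gt(ROSA)26Sor the lowest at -3.40.

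Germline genes were the list with the most calls in both directions. Of 43 tested genes with roles in germ cells and meiosis, 10 were higher and 4 lower, where 1.07% and 0.822% of all tested genes were. The median change of the list was 0.45 and that of all tested genes 0.06. Leaving out 1 of the 6 arrays gave 6 to 11 higher and 2 to 4 lower members. A promoter window, from 250 bases before to 50 after the RefSeq start on GRCm38.p6, was found for 8 of the 10 higher and all 4 lower genes. It was searched on both strands for the E-box CACGTG, the letters bound by Mga/Max-type factors, and for the E2F6-type letters TCCCGC, which read GCGGGA on the other strand and do not overlap it. The promoters of 4 genes that rose and 1 that fell, Stag3, hold both and are shown 5′ to 3′ with these letters in capitals.
Mael: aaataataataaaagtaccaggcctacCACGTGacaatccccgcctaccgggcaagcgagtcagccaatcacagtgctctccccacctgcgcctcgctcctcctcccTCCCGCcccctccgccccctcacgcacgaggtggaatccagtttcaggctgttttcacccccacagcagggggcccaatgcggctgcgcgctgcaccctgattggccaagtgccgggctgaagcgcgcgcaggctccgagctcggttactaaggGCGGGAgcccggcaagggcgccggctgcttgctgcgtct
Ddx4: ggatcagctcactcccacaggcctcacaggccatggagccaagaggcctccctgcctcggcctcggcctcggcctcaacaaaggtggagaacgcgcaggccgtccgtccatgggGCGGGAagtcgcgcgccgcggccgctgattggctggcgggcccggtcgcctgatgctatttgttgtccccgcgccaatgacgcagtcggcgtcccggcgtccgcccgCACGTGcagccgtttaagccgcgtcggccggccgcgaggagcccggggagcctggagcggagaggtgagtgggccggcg
Slc25a31: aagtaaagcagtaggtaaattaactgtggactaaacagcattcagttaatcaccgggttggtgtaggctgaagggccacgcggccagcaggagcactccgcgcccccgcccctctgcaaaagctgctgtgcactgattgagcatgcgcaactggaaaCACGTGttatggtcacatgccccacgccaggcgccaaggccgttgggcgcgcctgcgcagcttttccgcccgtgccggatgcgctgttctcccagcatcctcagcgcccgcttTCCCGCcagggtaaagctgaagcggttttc
Sycp1: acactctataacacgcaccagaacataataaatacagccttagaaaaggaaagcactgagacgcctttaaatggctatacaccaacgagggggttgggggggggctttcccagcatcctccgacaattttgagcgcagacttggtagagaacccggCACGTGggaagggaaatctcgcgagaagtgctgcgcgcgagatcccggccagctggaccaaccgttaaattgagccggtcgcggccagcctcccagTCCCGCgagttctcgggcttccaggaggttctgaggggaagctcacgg
Stag3: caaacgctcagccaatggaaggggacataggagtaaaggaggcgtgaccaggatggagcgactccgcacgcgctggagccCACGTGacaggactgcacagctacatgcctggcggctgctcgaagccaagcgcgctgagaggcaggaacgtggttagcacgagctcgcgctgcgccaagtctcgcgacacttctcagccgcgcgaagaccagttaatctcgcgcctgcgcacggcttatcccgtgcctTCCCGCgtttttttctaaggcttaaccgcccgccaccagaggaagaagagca

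These windows lie at chr1:166238695-166238994 on the minus strand for Mael, chr13:112652261-112652560 on the minus strand for Ddx4 and chr3:40708621-40708920 on the plus strand for Slc25a31. Those of Sycp1 and Stag3 lie at chr3:102936051-102936350 on the minus strand and chr5:138280259-138280558 on the plus strand. Among the 8 germline genes that rose and had a window, 5 held the E-box, 4 the E2F6-type letters and 4 both. Among the 4 that fell, 1 held the E-box, 3 the E2F6-type letters and 1 both. Of the 26 germline genes with a window that were not called, 8 held the E-box, 10 the E2F6-type letters and 4 both. Of 11242 tested genes with a window, 11.6% held the E-box, 38.2% the E2F6-type letters and 4.44% both, and of all 32851 windows 7.15%, 19.98% and 1.99% did. A gene with more than 1 window was counted when any of them held the letters. Shares of genes and shares of windows are therefore different measures. A match of letters is not a binding site, and no binding was measured here.

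Mael, Piwil2 and Ddx4 were among the germline genes that rose. Mael, a factor of the piRNA pathway, which silences transposons in germ cells, had 403, 508 and 386 in Eed deficient and 1117, 1339 and 1100 in double deficient arrays. The double deficient values exceeded every Eed deficient value, a log2 change of 1.45 (SE 0.16, adjusted p = 0.000912). Piwil2, which encodes a PIWI protein, had 108, 120 and 98.4 in Eed deficient and 215, 223 and 226 in double deficient arrays. The groups were apart and the double deficient arrays lay close together (log2 change 0.99, SE 0.14, adjusted p = 0.00372). Ddx4, the germ cell helicase also known as Vasa, had 288, 406 and 247 in Eed deficient and 705, 813 and 631 in double deficient arrays (log2 change 1.20, SE 0.22, adjusted p = 0.0131). Mael and Piwil2 were called in all 6 fits that left out 1 array. Ddx4 was called in 2 of them, with an adjusted p of 0.0565, 0.0607, 0.0547 and 0.0512 without Eed deficient replicate 1 and double deficient replicates 1, 2 and 3.

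Meiotic chromosome genes moved in both directions. Sycp1, a protein that zips paired chromosomes, had 17.4, 36.3 and 28.8 in Eed deficient and 122, 155 and 99.9 in double deficient arrays. Every double deficient array was above every Eed deficient one (log2 change 2.03, SE 0.28, adjusted p = 0.00333). Syce1, a central element protein, had 298, 354 and 318 in Eed deficient and 885, 949 and 766 in double deficient arrays (log2 change 1.41, SE 0.21, adjusted p = 0.00528). Sycp2, of the lateral element, had 22.1, 45.6 and 33.8 in Eed deficient and 104, 107 and 56.1 in double deficient arrays, where replicate 3 stayed low (log2 change 1.27, SE 0.29, adjusted p = 0.0432). Its call was not made without Eed deficient replicates 1 or 3 or double deficient replicates 1 or 2 (adjusted p from 0.0776 to 0.171), nor with the arrays scaled to 1 median (0.0717). The X-linked Tex11, a meiotic recombination factor, had 126, 134 and 154 in Eed deficient and 396, 424 and 340 in double deficient arrays (log2 change 1.45, SE 0.24, adjusted p = 0.00952), and it was called in all 6 fits, as were Sycp1 and Syce1.

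Stag3 and Hsf2bp, also meiotic, went the other way. Stag3, the meiotic cohesin subunit, had 227, 235 and 192 in Eed deficient and 71.6, 89.7 and 74.5 in double deficient arrays. The groups did not overlap and the log2 change was -1.42 (SE 0.16, adjusted p = 0.000939). Hsf2bp, a recombination factor that binds BRCA2, had 306, 369 and 283 in Eed deficient and 110, 122 and 81.7 in double deficient arrays (log2 change -1.58, SE 0.19, adjusted p = 0.00108). Both were called in all 6 fits. Tex14, of the bridges between germ cells, had 102, 85.4 and 81.0 in Eed deficient and 45.3, 43.6 and 33.2 in double deficient arrays (log2 change -1.05, SE 0.17, adjusted p = 0.00868; 0.0526 without double deficient replicate 3). Tdrd12, a piRNA pathway helicase, had 323, 605 and 277 in Eed deficient and 138, 182 and 144 in double deficient arrays. Its log2 change of -1.27 (SE 0.28, adjusted p = 0.0388) was called in 1 of the 6 fits, the one without Eed deficient replicate 3, and reached an adjusted p of 0.168 without double deficient replicate 3.

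The other germline genes that rose were Rhox13, Slc25a31 and Taf7l. Rhox13, a homeobox gene of the X-linked Rhox cluster, had 97.0, 194 and 144 in Eed deficient and 555, 639 and 568 in double deficient arrays. All 3 double deficient values were well above the Eed deficient range (log2 change 2.03, SE 0.23, adjusted p = 0.000912, called in all 6 fits). Slc25a31, the germline ADP/ATP carrier, had 145, 320 and 211 in Eed deficient and 641, 1158 and 567 in double deficient arrays (log2 change 1.78, SE 0.35, adjusted p = 0.0241). Its call was not made without Eed deficient replicate 1 or any 1 double deficient array (adjusted p from 0.0592 to 0.0914). Taf7l, a germ cell form of a TFIID subunit, had 74.3, 89.3 and 74.9 in Eed deficient and 174, 277 and 174 in double deficient arrays (log2 change 1.31, SE 0.23, adjusted p = 0.0123; 0.0551 without Eed deficient replicate 1).

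**Figure D2:**
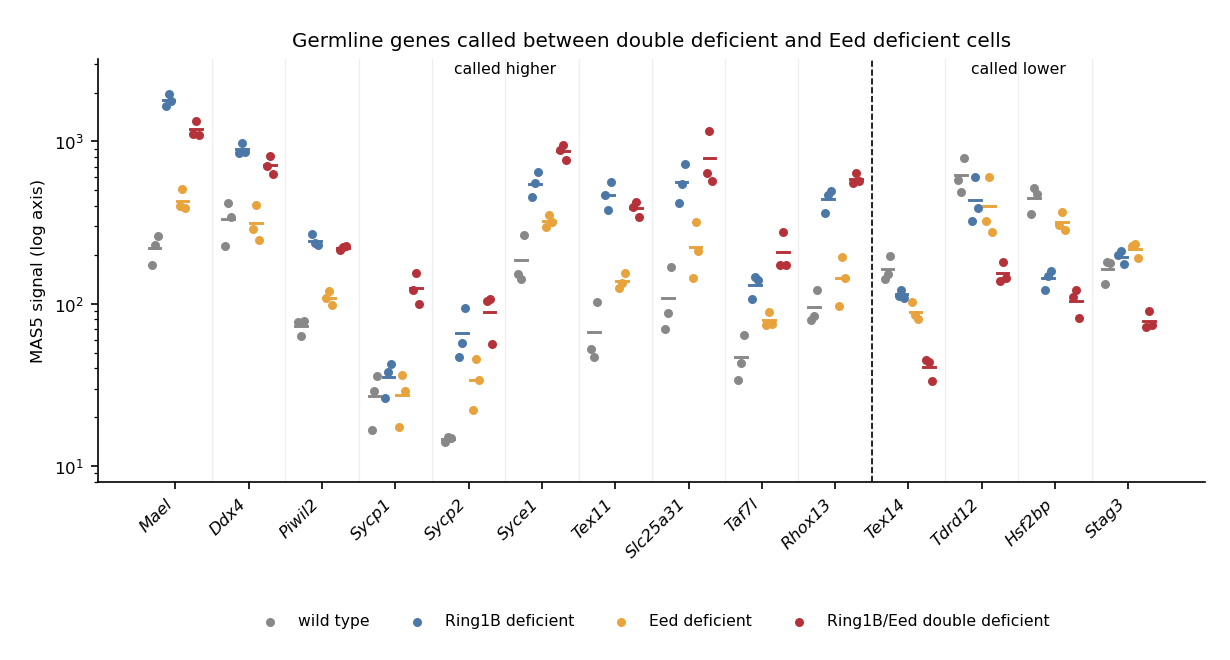
MAS5 signal on a log axis for the 14 germline genes called between double deficient and Eed deficient cells, 1 point per array and a bar at the mean of the 3 arrays of a genotype. The double deficient points (red) lie above the Eed deficient points (orange) for the 10 genes on the left, such as Mael with 1100 to 1339 against 386 to 508. They lie below them for the 4 genes on the right of the dashed line.

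Endoderm regulators that stood well above wild type in the parent line were higher again in double deficient cells. Of 13 endoderm transcription factors 4 were higher and 0 lower, where 1.07% and 0.822% of all tested genes were. The median change of the 13 was 0.24 and that of all tested genes 0.06. With the arrays scaled to 1 median 3 were higher, and these medians were 0.06 and -0.13. Sox17 had 373, 320 and 380 in Eed deficient and 724, 857 and 692 in double deficient arrays, with a wild type mean of 14.1 ± 3.46. The groups did not overlap (log2 change 1.07, SE 0.18, adjusted p = 0.00952), and the gene was called in all 6 fits. Gata6 had 178, 131 and 150 in Eed deficient and 271, 308 and 299 in double deficient arrays (log2 change 0.92, SE 0.18, adjusted p = 0.0211). Gata4 had 78.7, 88.9 and 66.8 in Eed deficient and 142, 157 and 167 in double deficient arrays (log2 change 0.96, SE 0.18, adjusted p = 0.0211). Both GATA factors direct primitive endoderm, and neither gene's arrays overlapped. Foxq1, a forkhead factor, had 73.3, 60.6 and 83.3 in Eed deficient and 170, 145 and 170 in double deficient arrays (log2 change 1.12, SE 0.19, adjusted p = 0.0108).

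Leaving out an array ended some of these calls, and 1 to 4 of the 13 factors were called in the 6 fits. Gata4 was called in 1 of the 6 fits that left out an array (adjusted p up to 0.12, without double deficient replicate 3), Gata6 in 2 (up to 0.111, without the same array) and Foxq1 in 4 (0.06 and 0.066 without double deficient replicates 1 and 3). Gata6 was also not called with the arrays scaled to 1 median (adjusted p = 0.0547). Genes of mature visceral endoderm were not called: of 22 uptake and carrier genes limma called 0, with 2 higher and 0 lower at an unadjusted p under 0.05 and a median change of -0.20. At that threshold 1464 of all 13984 tested genes were higher and 955 lower. Cubn, an uptake receptor, had 406, 367 and 146 in Eed deficient and 345, 296 and 362 in double deficient arrays, and Dab2, its endocytic adaptor, had 625, 712 and 264 and then 502, 350 and 503. For both genes the arrays overlapped and Eed deficient replicate 3 was the lowest. Of 24 basement membrane genes Lama1, a laminin chain, was higher, with 902, 741 and 634 in Eed deficient and 1241, 1426 and 1236 in double deficient arrays (log2 change 0.79, SE 0.16, adjusted p = 0.0311). It was called in 1 of the 6 fits, the one without Eed deficient replicate 1 (adjusted p up to 0.12), and not with the arrays scaled to 1 median (0.135). The list had 4 members called higher under quantile normalization, 0 with the arrays scaled to 1 median and 2 without Eed deficient replicate 1. With the replicate number as a block it had 7.

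Few homeobox and neural regulators were called, although most changes in these lists lay above 0. Zic1, a zinc finger factor of the early neural plate, had 73.7, 57.2 and 67.6 in Eed deficient and 196, 175 and 182 in double deficient arrays. The groups lay far apart (log2 change 1.42, SE 0.17, adjusted p = 0.00108), and the call was made in all 6 fits. Of 26 Hox cluster genes Hoxd13 was called higher and 0 lower. It had 108, 103 and 133 in Eed deficient and 177, 181 and 190 in double deficient arrays (log2 change 0.65, SE 0.15, adjusted p = 0.0486), a call made in 1 of the 6 fits and not with the arrays scaled to 1 median (0.134). All 26 Hox genes had a change above 0, with a median of 0.48, where 57.3% of all tested genes had one; with the arrays scaled to 1 median 21 of the 26 and 35.3% of all tested genes did. In 22 of the 26 Eed deficient replicate 3 exceeded the mean of the other 2 Eed deficient arrays.

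Of 63 homeobox genes outside the Hox clusters, Emx2 and Irx5 were called higher and 0 lower, with a median of 0.41. Of the 63 changes 55 lay above 0, and 51 did with the arrays scaled to 1 median. Of all tested genes 57.3% and 35.3% did. Irx5 had 26.4, 19.3 and 33.2 in Eed deficient and 59.8, 60.5 and 61.9 in double deficient arrays (log2 change 1.10, SE 0.22, adjusted p = 0.0267). Emx2, of the forebrain, was near the background with 6.50, 6.20 and 14.3 in Eed deficient and 29.5, 26.2 and 26.6 in double deficient arrays (log2 change 1.26, SE 0.29, adjusted p = 0.0444). Each was called in 1 of the 6 fits, and Emx2 also lost its call under quantile normalization and with the arrays scaled to 1 median (adjusted p = 0.0618 and 0.0575). Zic1 and Emx2 were also the 2 called members of 22 neuroectoderm genes, whose median was 0.29. Of these 22 genes 20 had a change above 0, and 17 did with the arrays scaled to 1 median. Of 30 mesoderm and primitive streak genes limma called 0, with 6 higher and 0 lower at an unadjusted p under 0.05 and a median of 0.34. Of all 13984 tested genes, 1464 were higher and 955 lower at that threshold. Bmi1, a PRC1 subunit gene that was raised in the parent line, went from 311, 289 and 288 to 388, 334 and 345 and was not called (log2 change 0.26, adjusted p = 0.36). Hoxa9 had 98.0, 99.9 and 124 in Eed deficient and 140, 122 and 107 in double deficient arrays, which overlapped.

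Secreted signalling genes and guidance cues gave a few calls. Of 22 secreted antagonists Dkk1 and Fst were higher and 0 lower, where 1.07% and 0.822% of all tested genes were. The median of the 22 was 0.46. Without Eed deficient replicate 3, the array with high fibroblast markers, 5 were higher, and without any other 1 of the 6 arrays 1 was. Dkk1, an inhibitor of Wnt signalling, had 68.0, 83.0 and 71.2 in Eed deficient and 185, 260 and 208 in double deficient arrays (log2 change 1.48, SE 0.23, adjusted p = 0.00623), apart in every array and called in all 6 fits. Fst, which binds activin, had 118, 47.2 and 122 in Eed deficient and 274, 211 and 333 in double deficient arrays (log2 change 1.55, SE 0.36, adjusted p = 0.0461). Its Eed deficient arrays were spread, and it was called in 1 of the 6 fits (adjusted p up to 0.203) and not with the arrays scaled to 1 median (0.0514). Of 55 secreted ligands Wnt11 was the 1 called, with 55.8, 56.6 and 48.5 in Eed deficient and 97.1, 98.3 and 111 in double deficient arrays (log2 change 0.87, SE 0.16, adjusted p = 0.0176). Its call was not made without Eed deficient replicate 1 or double deficient replicates 1 or 3 (adjusted p = 0.0551, 0.0629 and 0.109).

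Of 43 axon guidance genes 3 were higher and 0 lower, where 1.07% and 0.822% of all tested genes were. The median of the 43 was 0.35, and 0 to 3 were higher in the 6 fits. Nrp1, a receptor for semaphorins and VEGF, had 112, 93.9 and 208 in Eed deficient and 419, 388 and 584 in double deficient arrays. The groups did not overlap (log2 change 1.77, SE 0.33, adjusted p = 0.0185), with the call made in 2 of the 6 fits (adjusted p up to 0.117, without double deficient replicate 3). The ephrin genes Efna4 and Efnb2 rose by 0.74 and 0.95 in log2 (adjusted p = 0.0283 and 0.032), each called in 1 of the 6 fits, up to 0.143 and 0.17, and neither with the arrays scaled to 1 median (0.0653 and 0.0535). Of 22 trophoblast genes 1 was higher and 1 lower, where 1.07% and 0.822% of all tested genes were. The lower gene was Tead4, on chromosome 6 (log2 change -0.94, adjusted p = 0.0348). The placental Plac1 was the higher gene, with 45.8, 61.9 and 59.1 in Eed deficient and 105, 186 and 135 in double deficient arrays (log2 change 1.25, SE 0.21, adjusted p = 0.00952). Without double deficient replicate 3 the adjusted p of Plac1 was 0.0512. Cdx2 and Hand1, regulators of trophoblast, had log2 changes of 0.34 and -0.13 that were not called.

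**Figure D3:**
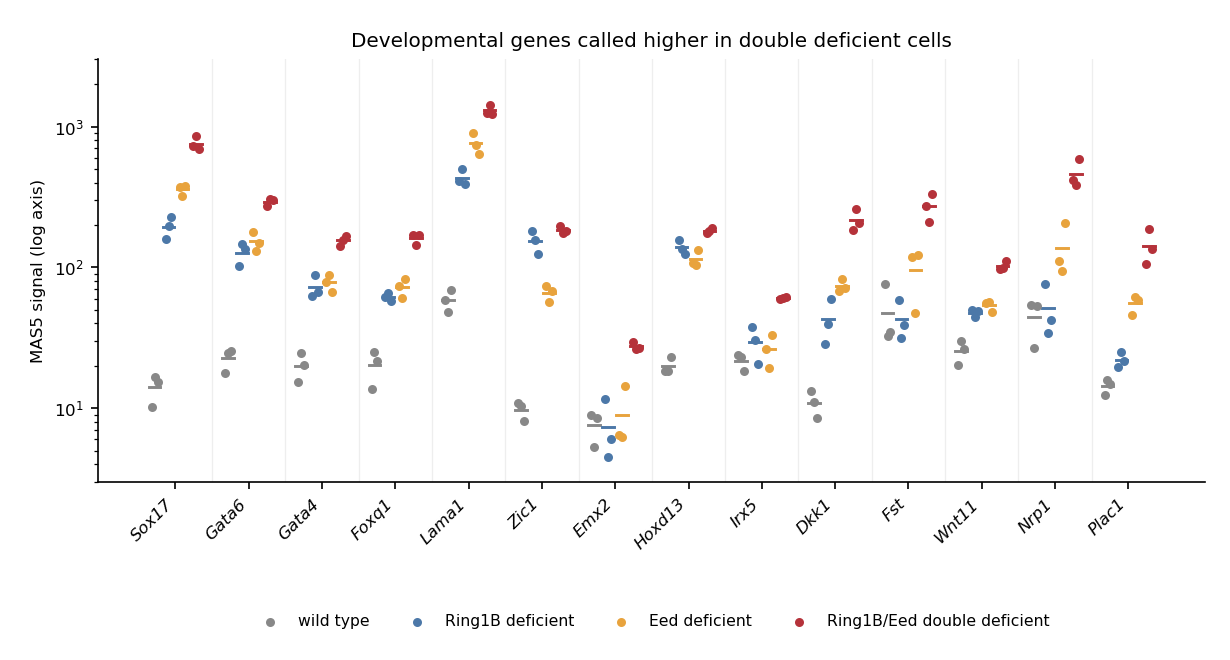
MAS5 signal on a log axis for 14 developmental genes called higher in double deficient than in Eed deficient cells, 1 point per array in each of the 4 genotypes and a bar at the mean. The red double deficient points stand above the orange Eed deficient points in all 14 genes, for example 692 to 857 against 320 to 380 for Sox17.

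The largest rises among the named genes included germline genes given above and genes of other kinds. Rarres1, a gene first found as responsive to retinoids, had 15.1, 7.98 and 23.1 in Eed deficient and 112, 210 and 133 in double deficient arrays (log2 change 2.96, SE 0.34, adjusted p = 0.000912). Usp17la, a deubiquitinating enzyme gene, had 29.5, 32.3 and 33.8 in Eed deficient and 142, 263 and 327 in double deficient arrays (log2 change 2.68, SE 0.35, adjusted p = 0.0019). Usp17la and Arg2, a mitochondrial arginase, were the called members among 5 tested genes of a 2-cell-stage list, where 0 were lower and the median was 1.23. Arg2 had 15.7, 22.8 and 19.6 in Eed deficient and 69.7, 108 and 123 in double deficient arrays (log2 change 2.08, SE 0.27, adjusted p = 0.0019). None of the 3 genes overlapped between the groups, and all 3 were called in all 6 fits. In Eed deficient cells Rarres1 and Arg2 were near the background, where the array medians were 21.5, 21.5 and 22.8. The sizes of their rises are therefore uncertain. Usp17la belongs to a family of near-identical copies, so its probe set may read several of them.

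H2-Aa, a class II antigen presentation chain, had 11.8, 22.5 and 19.5 in Eed deficient and 71.4, 120 and 95.0 in double deficient arrays (log2 change 2.13, SE 0.25, adjusted p = 0.00107). C130073F10Rik, a transcript without a known role here, had 30.6, 64.0 and 43.9 and then 187, 259 and 224 (log2 change 2.20, SE 0.25, adjusted p = 0.000912). Both were apart in all arrays and called in all 6 fits, and H2-Aa too was near the background in Eed deficient cells. AF067061 and 1700018B24Rik rose by 2.55 and 1.69 in log2 (adjusted p = 0.00842 and 0.0386). AF067061 was not called without double deficient replicate 3 (0.0512), and 1700018B24Rik was called in 1 of the 6 fits (up to 0.133). Fbp2, the muscle form of fructose bisphosphatase, had 29.3, 20.2 and 51.9 in Eed deficient and 115, 125 and 146 in double deficient arrays (log2 change 1.86, SE 0.30, adjusted p = 0.00862; 0.0526 without double deficient replicate 3). Of 27 lysosome genes Gaa, the acid glucosidase, was higher by 0.66 (adjusted p = 0.0326) and 0 were lower, a call made in none of the 6 fits (up to 0.164). Under quantile normalization 3 lysosome genes were higher, and with the arrays scaled to 1 median 0 were.

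Among the lower genes outside chromosome 6, the phospholipases Pla2g1b and Pla2g10 had large changes. Pla2g1b had 345, 279 and 277 in Eed deficient and 65.8, 44.0 and 62.7 in double deficient arrays (log2 change -2.30, SE 0.21, adjusted p = 0.000137). Pla2g10 had 441, 513 and 436 in Eed deficient and 184, 140 and 155 in double deficient arrays (log2 change -1.51, SE 0.17, adjusted p = 0.000912). Lrrc40, a leucine-rich repeat gene, had 636, 695 and 552 in Eed deficient and 282, 278 and 263 in double deficient arrays (log2 change -1.17, SE 0.15, adjusted p = 0.0019). For all 3 genes the groups did not overlap and the call was made in all 6 fits. Aire, the thymic regulator of self-antigens, had 190, 88.1 and 84.5 in Eed deficient and 33.6, 23.6 and 20.1 in double deficient arrays (log2 change -1.96, SE 0.35, adjusted p = 0.0126; 0.0548 without Eed deficient replicate 1 and 0.0888 without double deficient replicate 3). Ndufa4l2, a hypoxia-responsive mitochondrial gene, fell by 1.82 in log2 (adjusted p = 0.032), was called in 2 of the 6 fits (up to 0.168) and not with only the 6 arrays in the model (0.0634).

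Of the 6 Y-linked genes tested, Eif2s3y and Uba1y were called lower and 0 higher. Eif2s3y, a Y-linked translation factor gene, had 222, 431 and 346 in Eed deficient and 45.8, 78.1 and 67.6 in double deficient arrays (log2 change -2.28, SE 0.29, adjusted p = 0.0019). Uba1y, a Y-linked ubiquitin-activating enzyme gene, had 52.1, 80.0 and 38.3 in Eed deficient and 11, 7.73 and 14.6 in double deficient arrays (log2 change -1.91, SE 0.25, adjusted p = 0.00233). Both were called in all 6 fits, and the groups did not overlap. Uty, chosen after its values were seen, had 34.4, 26.7 and 60.1 and then 14.8, 18.4 and 14.8 (log2 change -1.05, adjusted p = 0.0782).

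Few heterochromatin and replication genes were called, with small falls. Of 26 DNA methylation and heterochromatin genes 0 were higher and 3 lower, where 1.07% and 0.822% of all tested genes were. The median of the 26 was -0.12. The 3 were Suv39h2, Cbx5 and Mbd4. Mbd4, on chromosome 6, was called in none of the 6 fits (adjusted p up to 0.171). Suv39h2, a histone H3 lysine 9 methyltransferase, had 123, 116 and 115 in Eed deficient and 81.5, 64.2 and 68.7 in double deficient arrays (log2 change -0.69, SE 0.13, adjusted p = 0.0211), and was called in 2 of the 6 fits (up to 0.115). Cbx5, which encodes the reader HP1 alpha, had 812, 720 and 696 in Eed deficient and 483, 527 and 458 in double deficient arrays (log2 change -0.60, SE 0.11, adjusted p = 0.0167), and was called in 3 of them (up to 0.11). The kept probe sets disagreed for both genes: 2 of 3 for Suv39h2 and 1 of 3 for Cbx5 went down, and their means were not called (adjusted p = 0.336 and 0.769). Of 47 DNA replication genes Pold2, a DNA polymerase delta subunit, fell by 0.63 in log2 (adjusted p = 0.0311, called in 1 of the 6 fits, up to 0.162) and 0 rose. In that list 41 of 47 changes lay below 0, with a median of -0.16, where the brighter genes had a median of -0.03, and with the arrays scaled to 1 median 4 were called lower.

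Chromosome 6 stood apart from the other chromosomes in this comparison. It held 4.94% of the tested genes and 51 of the 115 genes called lower (44.3%), and 7.38% of its 691 tested genes were called lower against 0.481% of the genes elsewhere. Over its 330 brighter genes the median change was -0.40, with 84.8% of them below 0. On the 19 other chromosomes without Y the median ran from -0.05 to 0.01. Relative to the wild type mean, the chromosome 6 median was 0.41, 0.42 and 0.34 in the 3 Eed deficient arrays and -0.02, -0.01 and -0.06 in the 3 double deficient arrays. It was 0.02, 0.03 and 0.02 in the 3 Ring1B deficient arrays. The Eed deficient arrays were thus the high ones, and the double deficient arrays lay near the wild type level.

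The shift ran along nearly the whole chromosome. In 12 bins of brighter genes in chromosome order, the median change was 0.04 in the first bin of 28 genes, from Vps50 to Ndufa5, and between -0.32 and -0.67 in the other 11. The last bin, from Dera to Resf1, had the lowest median, -0.67, and 10 of its 27 genes were called lower. Copy number was not measured, and its part in these calls was not tested. With each array's chromosome medians taken out before the fit, a setting added after seeing the data, 180 genes were higher and 53 lower, 3 of them on chromosome 6. All 53 and 146 of the 180 had been called the same way without it.

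**Figure D4:**
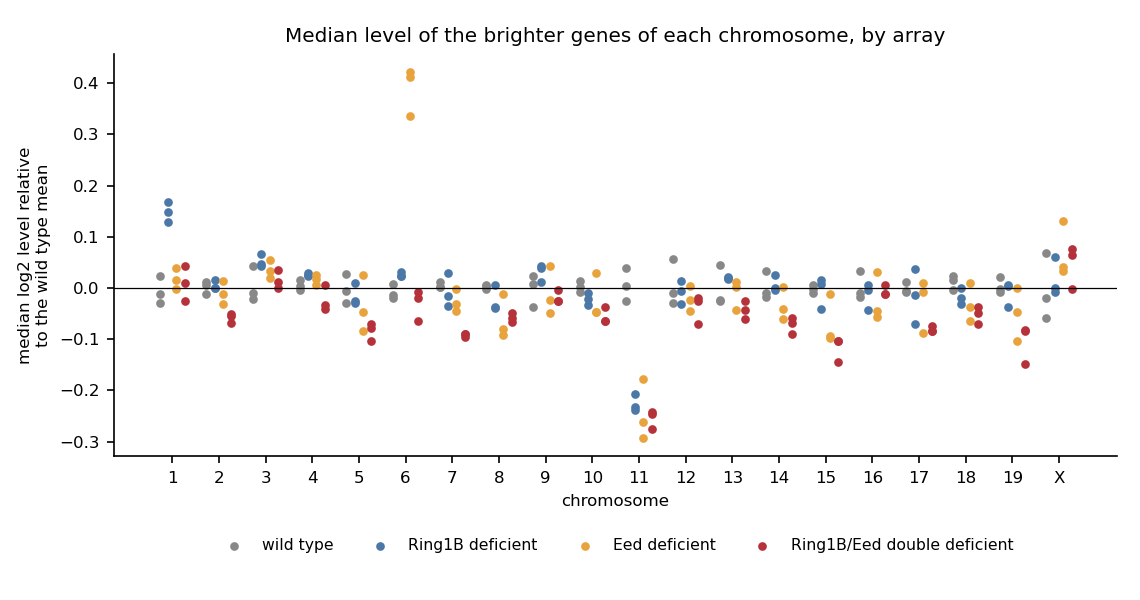
Median log2 level of the brighter genes of each chromosome relative to the wild type mean (y axis), 1 point per array, for chromosomes 1 to 19 and X (x axis). On chromosome 6 the Eed deficient arrays (orange) lie at 0.34 to 0.42 and the double deficient arrays (red) at -0.06 to -0.01. On chromosome 11 the arrays of all 3 mutant genotypes lie between -0.29 and -0.18, so the difference between double and Eed deficient cells there is small (median change -0.02).

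The strongest falls of all lay on chromosome 6 and went far beyond its shift. Gt(ROSA)26Sor, the widely expressed Rosa26 transcript, had 1707, 1274 and 1243 in Eed deficient and 156, 118 and 112 in double deficient arrays (log2 change -3.40, SE 0.18, adjusted p = 6.8e-07). Mest, an imprinted gene expressed from the paternal allele, had 361, 269 and 348 in Eed deficient and 30.5, 24.7 and 39.8 in double deficient arrays (log2 change -3.18, SE 0.22, adjusted p = 7.7e-06). Both were apart in every array and called in all 6 fits, and with chromosome medians taken out their changes were -3.0 and -2.78. Mest was also low in Ring1B deficient cells, with a mean of 27.8 ± 7.02 against 485 ± 108 in wild type, whereas Gt(ROSA)26Sor was not (1644 ± 30.8 against 1567 ± 369). Mest was the 1 imprinted gene of 34 called lower, and Kcnq1ot1, the antisense RNA of the Kcnq1 domain, the 1 called higher (log2 change 0.85, adjusted p = 0.042; called in none of the 6 fits, up to 0.175). The strand the Kcnq1ot1 probe sets read was not examined.

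Nanog and Ezh2 also lie on chromosome 6. Nanog, a regulator of pluripotency, had 1692, 1788 and 1706 in Eed deficient and 1183, 1024 and 1082 in double deficient arrays (log2 change -0.66, SE 0.13, adjusted p = 0.0211). Ezh2, which encodes the methyltransferase of PRC2, had 1624, 1445 and 1398 in Eed deficient and 824, 894 and 899 in double deficient arrays (log2 change -0.77, SE 0.13, adjusted p = 0.0108). The groups did not overlap for either gene. With chromosome medians taken out their changes were -0.26 and -0.37 and neither was called (adjusted p = 0.31 and 0.162). Nanog was called in 1 of the 6 fits (up to 0.109) and Ezh2 in 3 (up to 0.0607). Tead4, a trophoblast regulator, Mbd4, a DNA repair glycosylase, and Ncapd2, a condensin subunit, fell by 0.94, 0.79 and 1.07 in log2 (adjusted p = 0.0348, 0.0496 and 0.0124). Each of these calls was also lost with chromosome medians taken out (0.192, 0.296 and 0.0836).

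Rnf2, Nanog and Ezh2 were the called genes among the pluripotency and Polycomb lists. Nanog was the 1 called of 32 pluripotency genes, whose median was -0.13. With the arrays scaled to 1 median 5 were called lower, with a median of -0.33. With the replicate number as a block 8 were called lower and 2 higher. Pou5f1, the gene of Oct4, had 1949, 1837 and 1877 in Eed deficient and 1713, 1423 and 1514 in double deficient arrays, lower in all 3 but not called (log2 change -0.29, adjusted p = 0.199). Sox2 had 2672, 1327 and 1955 in Eed deficient and 2074, 1354 and 1932 in double deficient arrays, which overlapped (log2 change -0.12, adjusted p = 0.82). Of 27 PRC1 subunit genes Rnf2 was lower and 0 higher (3 lower with the arrays scaled to 1 median), and of 11 PRC2 genes Ezh2 was lower and 0 higher. Suz12, the PRC2 scaffold subunit, had a log2 change of -0.01 (adjusted p = 0.981). Of 12 housekeeping genes limma called 0, with 0 higher and 1 lower at an unadjusted p under 0.05 and a median of 0.00. Of all 13984 tested genes, 1464 were higher and 955 lower at that threshold.

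Markers of other cell types that a culture can hold differed between the arrays. Of 31 fibroblast and feeder cell markers limma called 0, with 15 higher and 0 lower at an unadjusted p under 0.05, and all 31 changes lay above 0 (28 with the arrays scaled to 1 median), with a median of 0.66. With the replicate number as a block 8 of the 31 were called higher. Of all 13984 tested genes, 1464 were higher and 955 lower at an unadjusted p under 0.05. The summed signal of the 31 markers was 8976, 9785 and 18064 in Eed deficient and 17663, 19535 and 17508 in double deficient arrays. Eed deficient replicate 3 thus lay in the double deficient range, and in 30 of the 31 markers it exceeded the mean of the other 2 Eed deficient arrays. Postn, a matrix protein of fibroblasts, had 36.5, 48.7 and 309 in Eed deficient and 204, 287 and 168 in double deficient arrays. Of 11 macrophage markers limma called 0, with 4 higher and 0 lower at an unadjusted p under 0.05, and their summed signal was 349, 450 and 1447 in Eed deficient and 900, 1341 and 1056 in double deficient arrays. Lyz1, a lysozyme, had 41.6, 20.2 and 631 in Eed deficient and 349, 527 and 356 in double deficient arrays.

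Without Eed deficient replicate 3, 15 fibroblast and 5 macrophage markers were called higher. Cells of another type and more RNA per cell cannot be told apart in bulk RNA. Of the 150 genes called higher, Eed deficient replicate 3 was the highest Eed deficient array in 74. Of the 115 genes called lower it was the lowest in 58. Its median log2 difference from the other 2 was 0.13 for higher, -0.09 for lower and 0.01 for all tested genes. For these calls the part of other cells was not tested. Among the germline genes Eed deficient replicate 3 was above the mean of the other 2 Eed deficient arrays in 13 of 43, and without it 9 were higher and 4 lower.

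The same Ring1B loss can be set beside that in cells with Eed, since Ring1B deficient and wild type arrays are not among the 6 used so far. The 2 contrasts share no array, though they share the model's estimate of the spread. Ring1B deficient cells had 655 genes higher (4.68%) and 350 lower (2.5%) than wild type. In that comparison the brighter genes of chromosomes 1 and 11 had median changes of 0.15 and -0.22, and the part of these shifts was not tested. Called the same way in both were 66 genes, 51 higher and 15 lower, which is 24.9% of the 265 calls in the Eed deficient background and 6.57% of the 1005 calls (7.19% of tested genes) in the wild type background. Of the 150 higher genes 34.0% were higher in Ring1B deficient cells, and of the 115 lower genes 13.04% were lower there. Without double deficient replicate 1 or 3 the shared count was 22, and without Eed deficient replicates 1 and 2 and double deficient replicate 2 it was 34, 43 and 38.

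The germline genes Rhox13, Slc25a31 and Syce1 were among the shared rises, as was Fbp2. Rhox13 rose by 2.03 in the Eed deficient and 2.17 in the wild type background, Slc25a31 by 1.78 and 2.38, Fbp2 by 1.86 and 2.44, and Syce1 by 1.41 and 1.58 in log2. For these 4 genes the interaction, which tests whether the change differed between the backgrounds, was not called (adjusted p = 0.86, 0.588, 0.512 and 0.80). Dkk1 rose by 1.48 and 1.54, Wnt11 by 0.87 and 0.80 and Vnn1, a pantetheinase, by 1.62 and 1.67, again without a called interaction (0.948, 0.911 and 0.973). The shared falls included Mest (-3.18 and -3.90), Hsf2bp (-1.58 and -1.61), Lrrc31 (-1.57 and -1.20), Calml4 (-1.52 and -1.37) and Uba1y (-1.91 and -1.02), with interaction adjusted p from 0.232 to 0.967. A missed threshold does not show that the changes were equal.

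The interaction was called for 266 genes (1.9%), 99 (0.708%) with a more positive and 167 (1.19%) with a more negative change in the Eed deficient background. Of the 167, 134 were genes that rose with Ring1B loss in wild type cells, 86 changed by less than 0.5 in log2 in the Eed deficient background, and 34 lay on chromosome 6. Srgn, a proteoglycan of secretory granules, is an example: it had 1026, 1114 and 952 in Eed deficient and 865, 950 and 814 in double deficient arrays, against 58.7 ± 18.2 in wild type and 1403 ± 247 in Ring1B deficient cells (interaction -4.73, SE 0.27, adjusted p = 1.7e-06). Hoxa9 (interaction -4.03, adjusted p = 3.1e-05), Cubn (-3.98, 0.0019) and Dab2 (-3.81, 0.001) had the same form, high in the parent line and similar in its derivative. Sox17, Gata6, Lama1, Zic1, Hoxd13 and Mael rose in both backgrounds but by less with Eed gone, with interactions of -2.32, -1.33, -2.01, -2.0, -1.87 and -1.56 (adjusted p from 0.000476 to 0.0164). Bmi1 had an interaction of -1.19 (adjusted p = 0.00966).

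In the other direction the interaction marked genes that fell with Ring1B loss in wild type cells and were already low in the parent line. Meg3, an imprinted noncoding RNA, had 944 ± 298 in wild type and 43.8 ± 6.68 in Ring1B deficient cells, and 39.9, 35.7 and 244 in Eed deficient and 144, 133 and 118 in double deficient arrays (interaction 5.07, adjusted p = 0.0029). Rian, of the same cluster, had 362 ± 42.0 and 25.7 ± 3.45, and then 31.5, 29.5 and 68.7 and 58.5, 77.6 and 82.8 (interaction 4.35, adjusted p = 3.1e-05). Neurod1, a neuronal factor, and the X-linked Nxf3 had interactions of 2.64 and 3.48 (adjusted p = 0.000337 and 0.0019). Of the 99 genes with a positive interaction 59 were called lower in Ring1B deficient cells and 29 higher in double than in Eed deficient cells, with Efnb2 and Zfp869 in both sets. The 29 included Rarres1 (interaction 3.13, adjusted p = 0.00467), Usp17la (2.48, 0.0199), Arg2 (1.96, 0.0173) and Sycp1 (1.67, 0.0496). The counts of called interactions were 92 and 135 without double deficient replicates 3 and 1 and 172 without Ring1B deficient replicate 3.

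A few genes moved in opposite directions in the 2 backgrounds. Pla2g10, Kndc1 and Tead4 were lower with Ring1B loss in Eed deficient cells and higher with it in wild type cells, and Efnb2 and Zfp869 the reverse. Pla2g10 had a mean of 256 ± 31.5 in wild type and 461 ± 106 in Ring1B deficient cells, a log2 change of 0.82 against -1.51 in the Eed deficient background (interaction -2.33, SE 0.24, adjusted p = 0.000379). Zfp869, a zinc finger gene, had 68.7 ± 15.8 and 37.1 ± 9.80 in these genotypes and rose from 42.6, 38.7 and 33.3 to 114, 105 and 95.6 (interaction 2.16, SE 0.29, adjusted p = 0.00205). Both were called in all 6 fits. Kndc1 and Efnb2 had interactions of -1.93 and 1.70 (adjusted p = 0.00418 and 0.0101) and were each called in 1 of the 6 fits of the change itself. Tead4, on chromosome 6, was also called in 1 of the 6 fits, and not with chromosome medians taken out (log2 change -0.54, adjusted p = 0.192). With the mean of the kept probe sets the change in the Eed deficient background was -0.24 for Kndc1, -0.37 for Tead4 and 0.60 for Efnb2, and none was called (adjusted p = 0.641, 0.424 and 0.122).

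**Figure D5:**
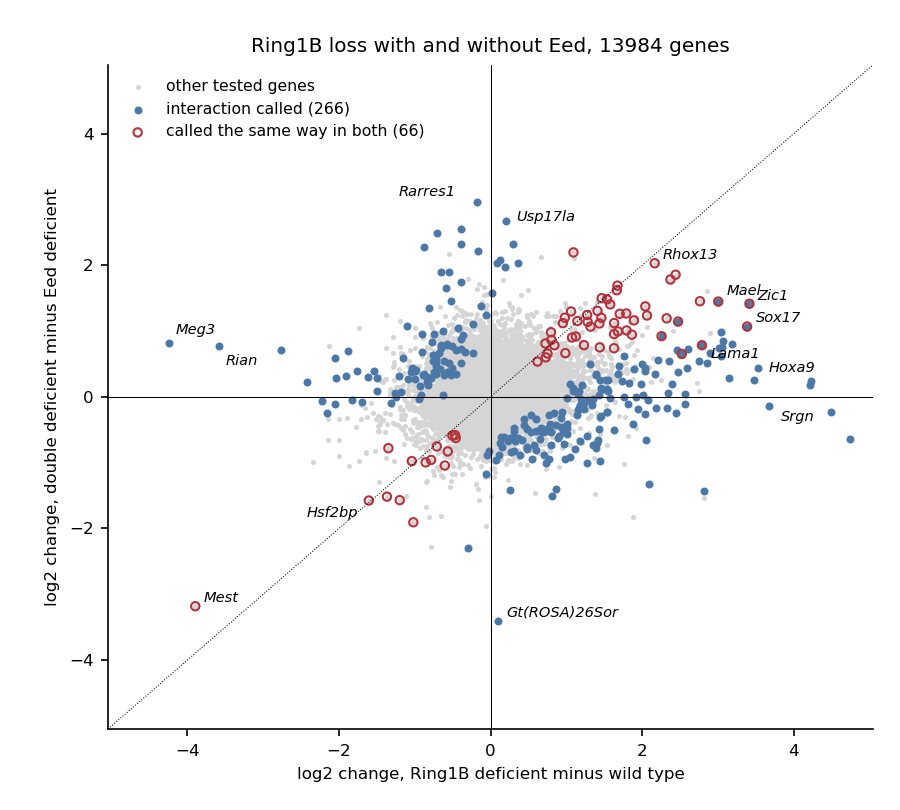
Log2 change on Ring1B loss with Eed absent (double minus Eed deficient, y axis) against that with Eed present (Ring1B deficient minus wild type, x axis), 1 point per tested gene, with a dotted line where the 2 are equal. Blue points are the 266 genes with a called interaction and red rings the 66 genes called the same way in both. Srgn and Hoxa9 lie far to the right near 0 on the y axis, Meg3 and Rian far to the left, and Rhox13 and Mest near the dotted line.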

How the data were processed

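The deposited values are intensity values on a linear scale, and the submitters' processing notes name MAS5 as the tool behind them. Its version and settings and the scan dates are not given in the sources. The trimmed mean of every array was 100, array medians differed by up to 1.47-fold, and no further normalization was applied. Detection calls were not analysed here, and the number of arrays limits the precision.

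Of 45037 probe sets that were not array controls, 34945 had 1 gene symbol in the platform annotation, 932 several and 9160 none, and genes were named only from the first. Probe sets were kept when above the 40th percentile of the array on 3 or more of the 12 arrays (30027 kept), and each of 13984 genes was tested through its probe set of highest mean log2 value. The values log2(signal + 5) of all 12 arrays entered 1 linear model with a mean for each genotype (limma 3.58.1 under R 4.3.3; empirical Bayes with an intensity trend). The contrasts were double minus Eed deficient, Ring1B deficient minus wild type, and their difference, the interaction. Adjusted p-values are Benjamini-Hochberg values over the 13984 genes, called under 0.05. The procedure was tested on simulated data. Chromosomes came from a RefSeq gene table and promoter windows from RefSeq, both GRCm38.p6. The brighter genes are those above the median level of the tested genes.

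The 35 gene lists, the comparison and the motifs were chosen with earlier results of these data known. Named were Rnf2, Eed and Ring1, the 12 genes with the largest rise and the 12 with the largest fall that were called, did not overlap and had a level above the median, up to 5 genes from every list, called ones first and then the largest, a set of regulators (Bmi1, Cdx2, Ezh2, Gata4, Gata6, Hand1, Nanog, Pou5f1, Sox2 and Suz12), the 8 largest interactions of each sign and the 6 largest shared calls of each sign or of opposite sign. Mael, Ddx4, Syce1, Sycp2, Piwil2, Taf7l, Tex14 and Uty were chosen after their values were seen where this rule does not name them. Alternatives were other scalings, added values, filters, probe set rules, model settings and the loss of each array.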

Additional observations from a re-analysis of the deposited data

Results flagged for a closer look

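For 30 of the named genes the change that went with Ring1B loss differed between the Eed deficient and the wild type background. This was called by the interaction term of the limma model (adjusted p under 0.05 over all tested genes). Other differences between the lines enter that term as well. All values here are interactions in log2: the double minus Eed deficient change, less the Ring1B deficient minus wild type change.

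Negative values were found for genes that rose more, or only passed the threshold, in the wild type background. They were -4.73 for Srgn, -4.03 for Hoxa9, -3.98 for Cubn, -3.81 for Dab2, -2.32 for Sox17, -2.01 for Lama1, -2.0 for Zic1, -1.87 for Hoxd13, -1.56 for Mael, -1.33 for Gata6 and -1.19 for Bmi1. Genes that were lower in double than in Eed deficient cells gave -3.50 for Gt(ROSA)26Sor, -2.33 for Pla2g10, -2.01 for Pla2g1b, -1.93 for Kndc1, -1.71 for Tead4, -1.67 for Stag3 and -1.12 for Lrrc40. Gt(ROSA)26Sor and Tead4 lie on chromosome 6, whose brighter genes had a median interaction of -0.44. The brighter genes of chromosomes 1 and 11 had -0.16 and 0.20.

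Positive values were found for genes called higher in double than in Eed deficient cells, with 3.13 for Rarres1, 2.94 for AF067061, 2.48 for Usp17la, 2.16 for Zfp869, 1.96 for Arg2, 1.70 for Efnb2, 1.67 for Sycp1 and 0.90 for Gaa. They were also found for genes that fell in the wild type background, with 5.07 for Meg3, 4.35 for Rian, 3.48 for Nxf3 and 2.64 for Neurod1.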

How the results depend on the processing

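Of 63 named genes called between double and Eed deficient cells, 24 were called under all 24 alternatives and none changed sign among them. Over 1511 pairs of gene and alternative the call was kept in 1268 and lost in 243, of which 174 left out 1 array. The counts of genes higher, lower, called in the interaction and shared by both backgrounds were 150, 115, 266 and 66. At an adjusted p under 0.01 they were 30, 21, 56 and 17. With arrays scaled to 1 median the first of these were 82 higher and 343 lower. The lower count was 189 under quantile normalization, 69 with only the 6 arrays in the model, 74 without an intensity trend, 64 without chromosome 6 and 53 with chromosome medians taken out, the last 2 chosen after seeing the data. Leaving out each of the 12 arrays in turn gave 26 to 202 higher, 19 to 146 lower, 92 to 277 interaction and 22 to 69 shared genes. The cause of these shifts was not tested. With the mean of the kept probe sets 11 named genes were no longer called, among them Mbd4, Hoxd13, Fst, Kcnq1ot1 and Gaa (adjusted p from 0.0613 to 0.171). Changes that were not called and turned sign were Sox2 (-0.38 without Eed deficient replicate 2 to 0.13 without replicate 1), Hand1 (-0.33 without double deficient replicate 3 to 0.22 without replicate 1), Cubn (-0.21 without Eed deficient replicate 3 to 0.51 without replicate 1), Hoxa9 (-0.0068 with arrays scaled to 1 median), Dab2 (-0.58 without Eed deficient replicate 3 to 0.13 without replicate 2) and Suz12 (0.055 under quantile normalization, 0.19 as the mean of probe sets, -0.085 to 0.082 when 1 array was left out, and 0.0085 with chromosome medians taken out). A fit with the replicate number as a block gave 655 higher, 648 lower, 1260 interaction and 302 shared genes. In that fit 16 germline genes were higher and 4 lower. Deviations of same-numbered Eed and double deficient arrays had correlations of 0.30, 0.41 and 0.06 for numbers 1, 2 and 3. Over all pairs of genotypes they ran from 0.16 to 0.43 for number 1, from 0.265 to 0.61 for number 2 and from -0.05 to 0.18 for number 3. Eed and double deficient arrays of unlike numbers 1 and 2 had -0.40 and -0.29. The labels do not say that numbers mark a shared day, number 3 of the compared groups stayed under 0.1, and double deficient replicate 3 correlated best with Eed deficient replicate 1 (0.18), so the numbers were not taken to pair the arrays, although numbers 1 and 2 hint at it. With 3 arrays a group and dim genes near the background, small changes may be missed.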
